A study of Mus musculus with 8 samples.

Results

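SWI/SNF (BAF) complexes are chromatin remodelers in which an ATPase, SMARCA4 (BRG1) or SMARCA2 (BRM), is joined by core, accessory and targeting subunits and uses ATP to move or evict nucleosomes. Mammalian cells hold at least a canonical BAF, a PBAF and a non-canonical BAF (ncBAF) form, and many positions in them can be filled by either of several paralogous proteins, such as ARID1A or ARID1B in canonical BAF, ARID2 in PBAF and SMARCC1 or SMARCC2 in the scaffold. ARID1A is among the most often mutated subunits in cancer, and whether a paralog is present when a subunit is lost is a recurring question for this family. Here, the levels of the subunit genes were described in mouse prostate tumor cells with and without Arid1a targeting. The genes were chosen by name: 31 genes, of 39089 in the deposited files, that encode known subunits or associated lineage factors of the complexes. Of these, 27 had enough reads to be tested, and the other 4 (Dpf3, Actl6b, Bcl11a and Bcl11b) were close to absent in all 8 samples.

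The cells were Myc-CaP, a cell line from a Myc-driven mouse prostate tumor, carrying either an empty control vector (Myc-CaP EV, here WT) or a guide RNA to Arid1a (sgArid1a, here Arid1a KO), grown under the skin of 6-week-old male FVB mice. From day 16, mice received daily by gavage for 2 weeks either JSH-23, an inhibitor of the nuclear entry of the NF-κB subunit p65, dissolved in DMSO and diluted in corn oil, or corn oil as vehicle. The study's figure legend labels the vehicle arm DMSO. EpCAM+ CD45- cells were sorted from the tumors and their RNA was sequenced in 4 groups of 2 samples: WT vehicle, Arid1a KO vehicle, WT JSH-23 and Arid1a KO JSH-23. All 4 groups thus share the Myc-driven line, the host strain and the sort, both genotypes carry vector DNA, and whether the Arid1a KO cells are 1 clone is not given in the sources used here. No label says that the 2 samples of a group came from separate tumors, so p-values measure only the spread between these samples, which may be technical. The libraries held between 16401581 and 21972231 counts on genes, and levels below are in CPM, read counts relative to library size scaled by the trimmed mean of M-values (TMM). A count of 0 allows up to between 0.137 and 0.183 CPM (3 counts of the library's total; counting error only).

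The labelled cell type was checked first against marker genes. Epcam, the gene of the sorted surface protein, had 0 and 1 counts in the WT vehicle samples, 0 and 4 in Arid1a KO vehicle, 0 and 0 in WT JSH-23 and 0 and 1 in Arid1a KO JSH-23, so the defining transcript of the sort was at or near 0 in every library. Of 5 epithelial markers, Krt8, a simple-epithelium keratin, was the most abundant, at 59.7 and 51.1 CPM in WT vehicle, 113 and 112 in Arid1a KO vehicle, 33.2 and 32.8 in WT JSH-23 and 97.7 and 103 in Arid1a KO JSH-23. Krt8 thus separated the genotypes without overlap and was higher in Arid1a KO (log2 fold change 1.02 with vehicle, edgeR adjusted p = 3.8e-29). The other epithelial markers were low. Krt18, the partner keratin of Krt8, had 4 to 18 counts and Cdh1 (E-cadherin) 1 to 19, so that 3 of the 5 were near absent, and Cldn4, a tight-junction gene, was at 6.75 to 11.3 CPM and not called by genotype with vehicle (log2 fold change 0.19), but higher in Arid1a KO with JSH-23 (0.54, edgeR adjusted p = 0.00058). Ptprc, which encodes CD45, had 0 to 10 counts, and the summed level of 9 leukocyte markers was 13.1 and 13.4 CPM in WT vehicle against 3.43 and 4.07 in Arid1a KO vehicle. Lyz2, a macrophage and neutrophil lysozyme, led that list, with 164 and 165 counts in WT vehicle against 54 and 71 in Arid1a KO vehicle. Itgam, Adgre1 and Csf1r reached the count filter only through WT samples, so no count of called leukocyte markers is given. With JSH-23 the same sum was 13.8 and 5.47 CPM in WT and 4.05 and 2.83 in Arid1a KO. The 6 fibroblast markers summed to between 57.5 and 64.0 CPM in all but the Arid1a KO JSH-23 samples (41.1 and 41.0), nearly all of it Pdgfra. Markers of T cells, B cells, endothelium, neurons and muscle summed to at most 3.43 CPM in any sample. The neuronal sum was 0.89 and 0.47 CPM in WT vehicle and 3.43 and 1.99 in Arid1a KO vehicle. Vwf, of the endothelial list, was at 0.18 and 1.12 CPM in WT vehicle and 2.04 and 2.08 in Arid1a KO vehicle. Pecam1 of that list was at 0.53 and 0.47 against 0.66 and 0.24, and Cdh5 at 0.18 and 0.47 against 0.17 and 0.15. Kdr was at 0.18 and 0.24 against 0.39 and 0.05, so Vwf does not stand for the list. Krt8, the leukocyte markers, Pdgfra and, at low levels with vehicle, the neuronal sum and Vwf therefore move with the groups compared below. Their part in the results was not tested. In sorted bulk RNA, fewer cells of a type and less RNA per cell cannot be told apart.

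The targeted gene checks the labels. Arid1a (chr4:133679008-133756769 in mm10, minus strand), whose product is the largest DNA-binding subunit of canonical BAF, stood at 156 and 161 CPM in the WT vehicle samples and at 103 and 106 in Arid1a KO vehicle. With JSH-23 it stood at 144 and 155 CPM in WT and at 93.8 and 95.9 in Arid1a KO. All 4 Arid1a KO samples were below all 4 WT samples. The transcript fell by 34.2% with vehicle (95% interval of the change -37.4% to -30.7%, log2 fold change -0.60 ± 0.036 SE, n = 2 per group, adjusted p = 1.39e-23 from edgeR's quasi-likelihood F-test, Benjamini-Hochberg adjusted over 13921 genes) and by 36.6% with JSH-23 (log2 fold change -0.66 ± 0.037, edgeR adjusted p = 5.12e-25). Most of the Arid1a transcript was thus still counted in Arid1a KO cells, and counts over the whole gene measure neither the edit nor the protein.

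**Figure D1:**
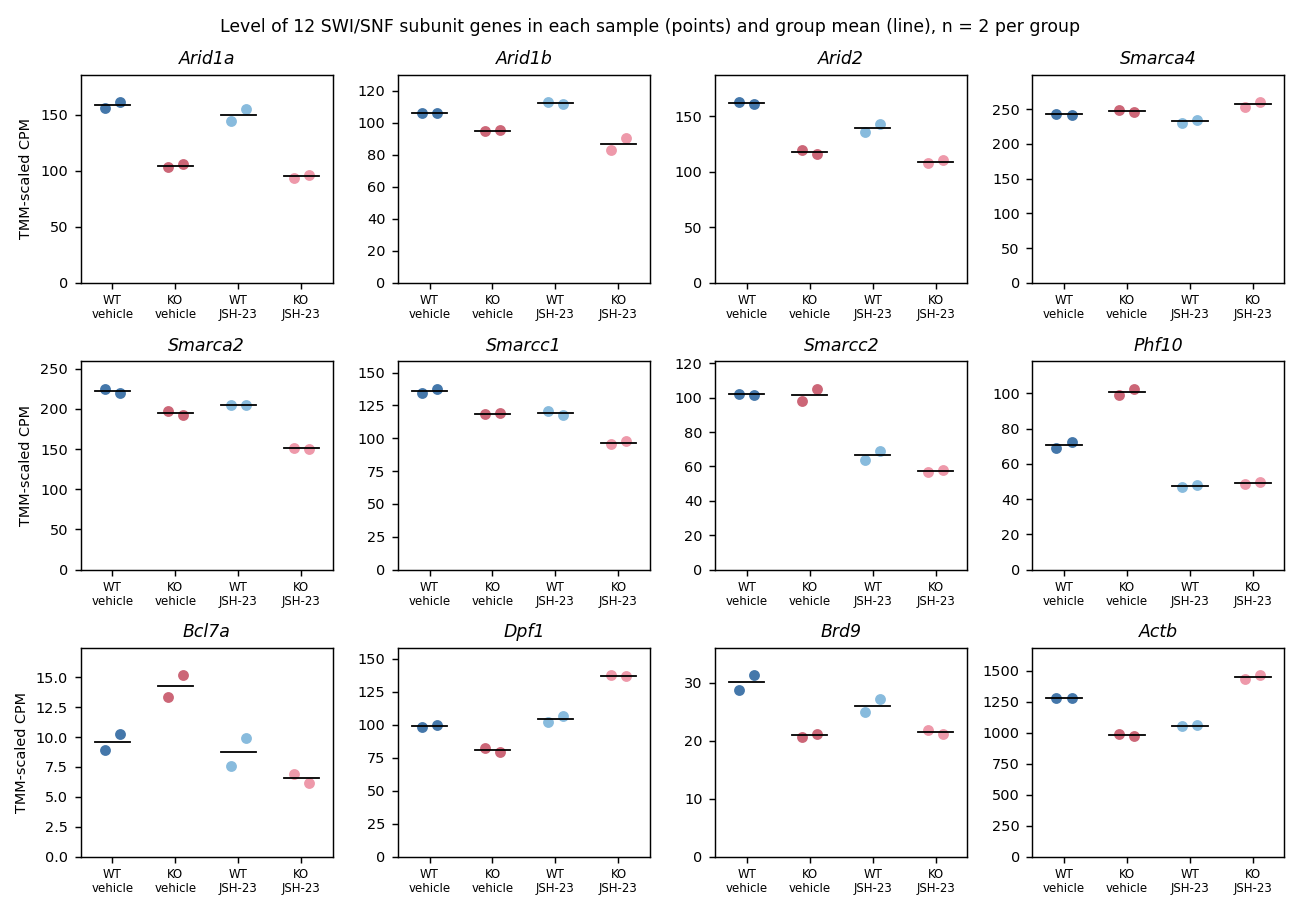
TMM-scaled CPM (vertical axes, starting at 0) of 12 subunit genes in the 8 samples (points) with the mean of each group (line); the groups are WT and Arid1a KO with vehicle or JSH-23. Arid1a, Arid1b, Arid2, Smarca2 and Brd9 lie lower in all 4 Arid1a KO samples than in any WT sample. Of the genes drawn, Phf10 and Smarcc2 lie lower in all 4 JSH-23 samples than in any vehicle sample. Smarcb1, Smarcd1, Smarcd2, Pbrm1 and Ss18, not drawn, had that order too, and the share of all genes with it was not taken.

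Arid1b, the paralog that fills the position of Arid1a in canonical BAF, was not higher in any Arid1a KO sample than in a WT sample. Arid1b (chr17:4994297-5347656, plus strand) stood at 106 and 106 CPM in WT vehicle and at 94.9 and 95.2 in Arid1a KO vehicle. With JSH-23 it stood at 113 and 112 CPM in WT and at 83.0 and 90.5 in Arid1a KO. Again the 4 Arid1a KO samples were below the 4 WT samples. The log2 fold change was -0.16 with vehicle (95% interval -0.24 to -0.08, edgeR adjusted p = 0.000607) and -0.37 with JSH-23 (-0.45 to -0.29, edgeR adjusted p = 2.09e-12), so both intervals, at the spread between these samples, lie below 0. The call with vehicle was lost when log2(TPM + 1) was tested with limma (log2 fold change -0.14, adjusted p = 0.134) and when a larger spread between replicates was assumed (biological coefficient of variation 0.1, adjusted p = 0.504), and that larger spread also ended the call with JSH-23 (adjusted p = 0.0716), without a change of direction.

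Because Arid1a fell further than Arid1b, Arid1b took a larger share of what remained. Per kilobase of deposited gene length, Arid1b made up 18.4% ± 0.424 (SD, n = 2) of the summed Arid1a and Arid1b level in WT vehicle, 23.5% ± 0.318 in Arid1a KO vehicle, 20.2% ± 0.979 in WT JSH-23 and 23.6% ± 0.820 in Arid1a KO JSH-23. The 4 Arid1a KO samples (22.98% to 24.1%) lay above the 4 WT samples (18.1% to 20.9%), a difference of 4.21 percentage points. An exact two-sided permutation test of genotype within each treatment gave p = 0.0556, the smallest its 36 arrangements allow, so the design cannot reach 0.05. The shares depend on the length used: the deposited length of Arid1b is 27784 bases while its longest coding transcript in GENCODE has 11325, and with GENCODE lengths the share was 32.6% in WT vehicle and 39.7% in Arid1a KO vehicle. The sum of both genes fell in either treatment, from a mean of 20.7 to 14.6 CPM per kilobase with vehicle and from 20.03 to 13.2 with JSH-23; these sums were not tested.

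Arid2 (chr15:96287522-96405463, plus strand), the ARID subunit of PBAF, was also lower in Arid1a KO cells. Its level was 163 and 161 CPM in WT vehicle against 119 and 116 in Arid1a KO vehicle. With JSH-23 it was 136 and 143 CPM in WT against 108 and 110.4 in Arid1a KO. The genotypes did not overlap, and the log2 fold change was -0.47 ± 0.035 with vehicle (edgeR adjusted p = 3.46e-19) and -0.35 ± 0.036 with JSH-23 (edgeR adjusted p = 2.68e-13). At an assumed coefficient of variation of 0.1 the vehicle call was kept (adjusted p = 0.0121) and the JSH-23 call lost (0.0928). Levels of Arid1a, Arid1b and Arid2 were thus each lower in the 4 Arid1a KO samples than in any WT sample.

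Across all subunit genes, Arid1a KO with vehicle had 10 of the 27 tested genes called higher (37.0%) and 9 called lower (33.3%) than WT (edgeR adjusted p under 0.05). Of all 13921 genes tested, 25.0% were called higher and 25.5% lower in the same comparison. Such shares, here and below, are over genes of all levels and were not matched to the levels of the members. Replicates differed little (common biological coefficient of variation 1.61%), so that small differences passed the test. DESeq2 called 6 members higher in that comparison. The median log2 fold change was -0.00 over the members and 0.00 over all genes. Past 1.5-fold stood 1 member, Arid1a itself (3.70%), beside 12.6% of all genes, and Bcl7a lay just under that size. With JSH-23, 7 members were higher (25.9%) and 13 lower (48.1%) in Arid1a KO (all genes 23.2% and 23.8%), with Arid1a again the 1 member past 1.5-fold (all genes 8.71%) and a median of -0.09 against -0.01 over all genes. On the deposited TPM scale, which is not TMM-scaled, the JSH-23 split was 2 higher and 19 lower, and the median of all genes there was -0.16 (log2(TPM + 1)). With all genes shifted there, that split is not read as a result about the members.

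Calls in both treatments were shared by fewer genes. Arid1a, Arid1b, Arid2, Smarca2, Smarcc1 and Brd9 (22.2% of the members tested, against 11.9% of all genes) were lower in Arid1a KO with vehicle and with JSH-23. At an assumed coefficient of variation of 0.1, Arid1a alone of these kept both calls. Brd7, a bromodomain subunit of PBAF, was higher in both (3.70% against 10.9% of all genes), although on the TPM scale its JSH-23 difference turned to -0.01. In 4 genes (Bcl7a, Bicral, Smarcd2 and Ss18l1; 14.8%, against 3.20% of all genes) the call went from higher with vehicle to lower with JSH-23, and in 3 (Actb, Dpf1 and Smarcd3; 11.1%, against 4.10%) from lower to higher, which for Smarcd3 held under TMM scaling but not on the TPM scale (-0.01). Levels in all 4 Arid1a KO samples were above all 4 WT samples for Smarca4, Brd7 and Actl6a (8.20% of all genes tested were so ordered) and below them for Arid1a, Arid1b, Arid2, Smarca2 and Brd9 (8.41%). These orders are of TMM-scaled levels, and on the TPM scale the JSH-23 difference was -0.05 for Smarca4 and -0.01 for Brd7. All 9 genes called lower with vehicle kept that call whichever of the 8 samples was left out, against 5 of the 10 called higher (Bcl7a, Dpf2, Phf10, Smarcd2 and Smarce1); without WT vehicle replicate 1 or without Arid1a KO vehicle replicate 1, 6 genes were called higher. At an assumed coefficient of variation of 0.1, Bcl7a and Phf10 stayed higher and Arid1a, Arid2, Brd9 and Actb lower with vehicle, and Actb stayed higher and Arid1a and Smarca2 lower with JSH-23. With JSH-23, 6 of the 7 higher and 8 of the 13 lower calls were kept in the same way. Those of Brd7, Brd9, Bcl7a, Bicral, Smarcd2 and Ss18l1 were lost with at least 1 sample left out, which include all 4 genes whose call turned from higher to lower. The 2 genotype comparisons use separate samples.

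**Figure D2:**
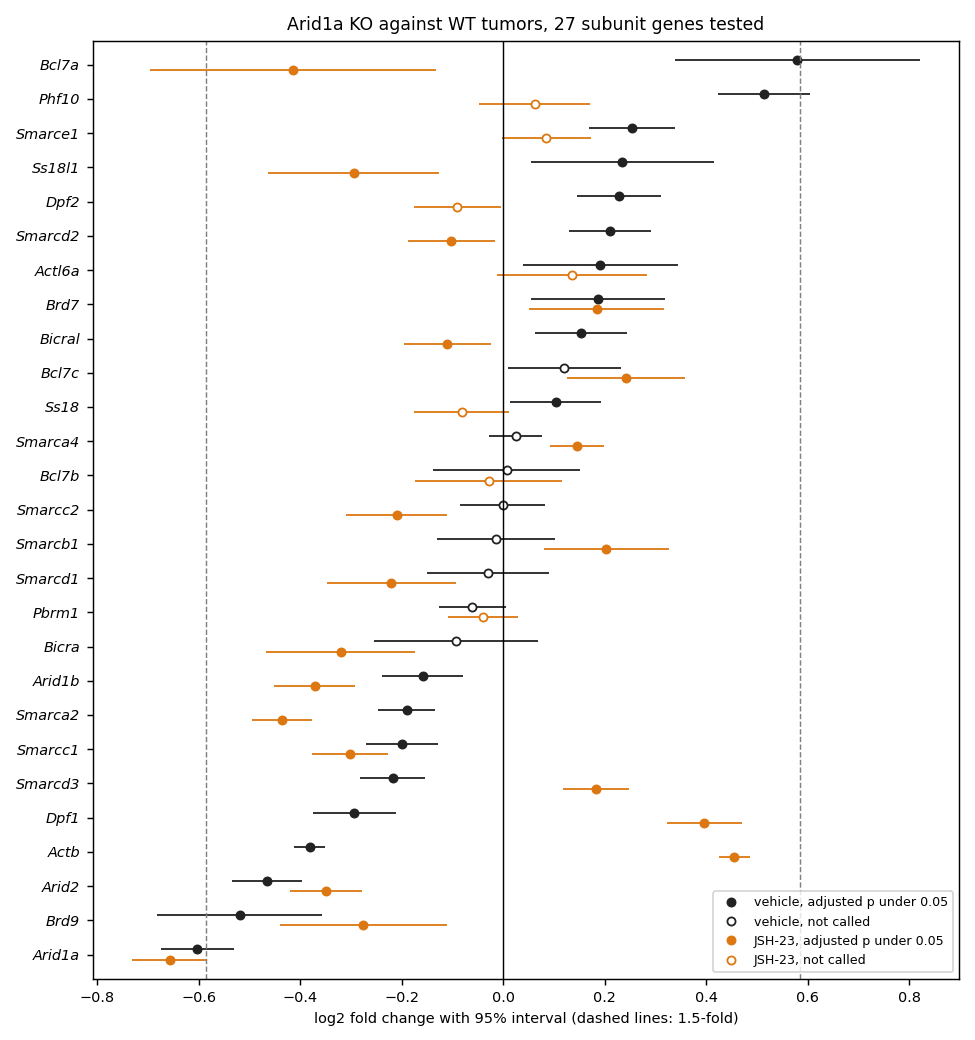
Log2 fold change of Arid1a KO over WT (horizontal axis) with its 95% interval for the 27 subunit genes tested, with vehicle (black) and with JSH-23 (orange); filled points passed an adjusted p of 0.05 and dashed lines mark 1.5-fold. Arid1a alone lies past the 1.5-fold lines in both treatments, and Dpf1, Actb and Bcl7a lie on opposite sides of 0 in the 2 treatments.

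The catalytic subunits moved apart. Smarca2 (chr19:26605073-26778321), which encodes the ATPase BRM, stood at 225 and 219.8 CPM in WT vehicle and at 197 and 193 in Arid1a KO vehicle, and with JSH-23 at 204 and 204 in WT and at 151 and 151 in Arid1a KO. It was lower in Arid1a KO with vehicle (log2 fold change -0.19, edgeR adjusted p = 3.33e-08) and more so with JSH-23 (-0.44, edgeR adjusted p = 6e-21), and the change with JSH-23 differed between genotypes (interaction -0.25, edgeR adjusted p = 8.72e-07). At an assumed coefficient of variation of 0.1, the vehicle and interaction calls were lost (adjusted p = 0.396 and 0.562) and the genotype call with JSH-23 was kept (0.0271). Smarca4 (chr9:21616106-21704230), which encodes the ATPase BRG1, stood at 243 and 242 CPM in WT vehicle and at 248 and 245 in Arid1a KO vehicle, a difference of 0.02 on the log2 scale (95% interval -0.03 to 0.08, edgeR adjusted p = 0.469). With JSH-23 it was 229.8 and 235 CPM in WT and 253 and 261 in Arid1a KO, higher by 0.14 under TMM scaling (edgeR adjusted p = 3.37e-06) but -0.05 on the TPM scale (limma adjusted p = 0.204), so its direction there depended on scaling. The share of Smarca4 in the pair does not depend on that scaling: per kilobase it was 51.8% in WT vehicle, 55.5% in Arid1a KO vehicle, 52.9% in WT JSH-23 and 62.7% in Arid1a KO JSH-23, highest where Smarca2 was lowest.

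Among the core scaffold subunits, Smarcc1 (BAF155) was lower in Arid1a KO and with JSH-23, and Smarcc2 (BAF170) was lower with JSH-23 and, among JSH-23 samples, in Arid1a KO. Smarcc1 (chr9:110132024-110240178) stood at 135 and 138 CPM in WT vehicle, 118 and 119 in Arid1a KO vehicle, 121 and 118 in WT JSH-23 and 95.3 and 97.9 in Arid1a KO JSH-23. The log2 fold change by genotype was -0.20 with vehicle (edgeR adjusted p = 2.08e-06) and -0.30 with JSH-23 (edgeR adjusted p = 1.97e-10), and the JSH-23 effect was -0.29 in Arid1a KO and -0.19 in WT. At an assumed coefficient of variation of 0.1, these 4 calls were lost (adjusted p = 0.0924 to 0.370). The Arid1a KO vehicle and WT JSH-23 samples overlapped.

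Smarcc2 (chr10:128459182-128490591, plus strand) stood at 102 and 102 CPM in WT vehicle and at 98.0 and 105 in Arid1a KO vehicle, which overlapped (log2 fold change -0.00, 95% interval -0.09 to 0.08). With JSH-23 it stood at 63.5 and 69.2 CPM in WT and at 56.8 and 57.8 in Arid1a KO, lower in Arid1a KO by 0.21 on the log2 scale (log2 fold change -0.21, edgeR adjusted p = 0.000313). It fell with JSH-23 in both genotypes, by 43.7% in Arid1a KO (log2 fold change -0.83 ± 0.045, edgeR adjusted p = 2.93e-26) and by 34.9% in WT (-0.62 ± 0.046, edgeR adjusted p = 3.97e-19). The Smarcc1 share of the pair per kilobase was 56.4% in WT vehicle, 53.1% in Arid1a KO vehicle, 63.5% in WT JSH-23 and 62.1% in Arid1a KO JSH-23. With GENCODE lengths it was 51.4%, 48.0%, 58.7% and 57.1% in that order, so the leading paralog in Arid1a KO vehicle depended on the length.

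Smarcb1 (BAF47), the small core subunit lost in rhabdoid tumors, was at 47.9 and 50.5 CPM in WT vehicle and 49.3 and 48.1 in Arid1a KO vehicle, and at 38.1 and 38.8 in WT JSH-23 and 44.1 and 44.4 in Arid1a KO JSH-23. It fell with JSH-23 in WT (log2 fold change -0.35, edgeR adjusted p = 1.16e-06), and the value in Arid1a KO was -0.14 (edgeR adjusted p = 0.0305). Smarcd1, Smarcd2 and Smarcd3 encode the alternative BAF60 proteins, which link the complex to transcription factors, and Smarce1 encodes BAF57, which has an HMG domain. With vehicle, Smarcd2 and Smarce1 were higher in Arid1a KO (log2 fold change 0.21 and 0.25) and Smarcd3 was lower (-0.22), calls that were lost at an assumed coefficient of variation of 0.1 (adjusted p = 0.342, 0.233 and 0.316), while the value of Smarcd1 was -0.03. With JSH-23 the genotype difference turned to -0.10 for Smarcd2 and to 0.18 for Smarcd3 (-0.01 on the TPM scale and 0.11 without WT JSH-23 replicate 1). The Smarcd2 call was kept in 3 of the 8 fits that left out 1 sample. The difference was -0.22 for Smarcd1, called, and 0.08 for Smarce1, not called. JSH-23 lowered Smarcd2, Smarcd1 and Smarce1 in Arid1a KO (log2 fold change -0.43, -0.37 and -0.28), calls that were kept with each sample left out in turn, and in WT the values were -0.12, -0.18 and -0.11. Leaving out 1 sample, the WT value ran from -0.18 to -0.05 for Smarcd2 and from -0.23 to -0.12 for Smarcd1. The Smarce1 call in Arid1a KO was lost at an assumed coefficient of variation of 0.1 (edgeR adjusted p = 0.111). Smarcd3 held the largest share of the 3 per kilobase in every group, between 44.6% and 53.7%.

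The DPF and PHF10 subunits carry paired PHD fingers that read histone tails, DPF1 to DPF3 in canonical BAF and PHF10 in PBAF, and Dpf1 and Phf10 passed 1.5-fold with JSH-23 in Arid1a KO. Dpf1 (chr7:29303952-29317592, plus strand), known for its part in the neuronal form of BAF, was at 97.9 and 99.6 CPM in WT vehicle, 82.3 and 79.0 in Arid1a KO vehicle, 102 and 106 in WT JSH-23 and 137 and 137 in Arid1a KO JSH-23. It was thus lowest in Arid1a KO with vehicle and highest in Arid1a KO with JSH-23, with no overlap between those groups and the WT groups. JSH-23 raised it 1.70-fold in Arid1a KO (log2 fold change 0.77 ± 0.038, edgeR adjusted p = 8.21e-29), the value in WT was 0.08 (edgeR adjusted p = 0.0874), and the interaction was 0.69 (edgeR adjusted p = 2.13e-17). Dpf2, the broadly expressed paralog, was at 85.2 and 87.8 CPM in WT vehicle, 99.3 and 103 in Arid1a KO vehicle, 85.5 and 84.3 in WT JSH-23 and 78.7 and 80.6 in Arid1a KO JSH-23, the reverse order of Dpf1 in Arid1a KO. Per kilobase, Dpf1 therefore made up 49.2% of the DPF transcripts in WT vehicle, 40.3% in Arid1a KO vehicle, 50.9% in WT JSH-23 and 59.2% in Arid1a KO JSH-23. With GENCODE lengths, Dpf1 led in all 4 groups, at 53.3% to 71.0%. Dpf3 had between 2 and 14 counts.

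Phf10 (chr17:14944994-14961260, minus strand), which encodes BAF45A, was at 68.9 and 72.5 CPM in WT vehicle and at 98.9 and 103 in Arid1a KO vehicle. With JSH-23 it was at 46.6 and 47.8 CPM in WT and at 48.9 and 49.6 in Arid1a KO, below every vehicle sample. With vehicle it was higher in Arid1a KO by 42.7% (95% interval 34.1 to 51.9, log2 fold change 0.51 ± 0.045, edgeR adjusted p = 5.93e-16), and with JSH-23 the difference was 0.06 (95% interval -0.05 to 0.17). JSH-23 lowered it 2.05-fold in Arid1a KO (log2 fold change -1.03 ± 0.047, edgeR adjusted p = 9.49e-31) and lowered it in WT by 0.58 on the log2 scale (edgeR adjusted p = 1.63e-15), just inside 1.5-fold, with an interaction of -0.45 (edgeR adjusted p = 2.43e-07, lost at an assumed coefficient of variation of 0.1, adjusted p = 0.219). The Arid1a KO samples thus went from the highest Phf10 levels with vehicle to levels beside those of WT with JSH-23.

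The promoter windows of Smarcc2, Dpf1 and Phf10 are printed because these genes passed 1.5-fold with JSH-23 in Arid1a KO. JSH-23 acts on a transcription factor with a known binding motif. Bcl7a, which had the deepest fall there (log2 fold change -1.13), also passed that size but had no window. Each window, from RefSeq (GRCm38.p6, the coordinates of mm10), runs 5′ to 3′ from 250 bases before to 50 after a start site on the gene's strand. A κB consensus (GGG, a purine, any pair of bases, a pair of pyrimidines, then CC, on either strand) is in capitals; it was present in the Smarcc2 window, chr10:128458986-128459285, and in neither the Dpf1 window, chr7:29303755-29304054, nor the Phf10 window, chr17:14961211-14961510 (minus strand).
Smarcc2: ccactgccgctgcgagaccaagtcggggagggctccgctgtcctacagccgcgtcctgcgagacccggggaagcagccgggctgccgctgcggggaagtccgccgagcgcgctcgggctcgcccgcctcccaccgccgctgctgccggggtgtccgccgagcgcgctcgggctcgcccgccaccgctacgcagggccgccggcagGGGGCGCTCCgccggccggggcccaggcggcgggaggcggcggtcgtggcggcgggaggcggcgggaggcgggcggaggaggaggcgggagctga
Dpf1: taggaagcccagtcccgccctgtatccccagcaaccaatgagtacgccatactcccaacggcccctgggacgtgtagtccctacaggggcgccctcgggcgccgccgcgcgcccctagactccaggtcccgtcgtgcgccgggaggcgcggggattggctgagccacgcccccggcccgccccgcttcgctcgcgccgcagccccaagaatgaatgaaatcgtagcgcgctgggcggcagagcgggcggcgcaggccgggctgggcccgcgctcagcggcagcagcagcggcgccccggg
Phf10: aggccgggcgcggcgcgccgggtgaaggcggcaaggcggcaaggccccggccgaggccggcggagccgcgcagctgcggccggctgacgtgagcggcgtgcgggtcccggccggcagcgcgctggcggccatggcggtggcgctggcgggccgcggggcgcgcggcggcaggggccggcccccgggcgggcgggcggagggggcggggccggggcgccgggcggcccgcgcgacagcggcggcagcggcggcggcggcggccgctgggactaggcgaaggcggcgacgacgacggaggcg
Of all 32851 windows of this length, 8.46% held the consensus, and of the 24 members with a window, 5 did (Smarca2, Smarcc2, Smarcd1, Bcl7b and Bcl11a). A match is a string of letters and not a site of binding. All 3 windows were rich in G and C, at 81%, 74% and 87% of bases for Smarcc2, Dpf1 and Phf10.

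The remaining PBAF subunits were steadier. Pbrm1, the polybromo subunit of PBAF, was at 161 and 157 CPM in WT vehicle and 149.9 and 155 in Arid1a KO vehicle, with a log2 difference of -0.06 (95% interval -0.13 to 0.01), and it fell with JSH-23 in both genotypes (-0.19 in Arid1a KO and -0.21 in WT). Brd7 was at 35.4 and 34.4 CPM in WT vehicle and at 40.6 and 38.9 in Arid1a KO vehicle, a log2 difference of 0.19 whose call was lost without WT vehicle replicate 2 (0.16) or without Arid1a KO vehicle replicate 1 (0.15).

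Of the ncBAF subunits, Brd9, the bromodomain subunit that marks this form, was at 28.9 and 31.3 CPM in WT vehicle and at 20.7 and 21.2 in Arid1a KO vehicle. With JSH-23 it was at 24.9 and 27.2 CPM in WT and 21.8 and 21.2 in Arid1a KO. It was lower in Arid1a KO with vehicle by 0.52 on the log2 scale (log2 fold change -0.52 ± 0.081, edgeR adjusted p = 1.04e-07) and with JSH-23 (-0.28 ± 0.082, edgeR adjusted p = 0.00395; this second call was lost without replicate 2 of WT JSH-23, at -0.22, or of Arid1a KO JSH-23, at -0.24). Bicra and Bicral, whose products GLTSCR1 and GLTSCR1L occupy one position of ncBAF, rose with JSH-23 in WT (log2 fold change 0.48 and 0.27), and in Arid1a KO the values were 0.25 for Bicra, a call lost without Arid1a KO vehicle replicate 2 (0.18, edgeR adjusted p = 0.11), and 0.01 for Bicral. No gene of the 3 passed 1.5-fold in any pairwise comparison.

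The actin module held the most abundant member. Actb, the β-actin gene, was at 1276 and 1278 CPM in WT vehicle, 986 and 975.1 in Arid1a KO vehicle, 1055 and 1058 in WT JSH-23 and 1435 and 1462 in Arid1a KO JSH-23. The 4 groups did not overlap, and the genotype difference was -0.38 with vehicle and 0.45 with JSH-23 (edgeR adjusted p = 2.14e-33 and 6.87e-38). Most actin is cytoskeletal, so its level says little of the complex, and reads shared with Actg1 or with processed copies could have been assigned to either. Actg1 differed by -0.33 with vehicle and by 0.27 with JSH-23. Actl6a (BAF53A), the actin-related subunit of dividing cells, was at 25.7 and 25.1 CPM in WT vehicle and 29.2 and 28.8 in Arid1a KO vehicle (log2 fold change 0.19; the call was lost without either replicate of either vehicle group). Its neuronal paralog Actl6b had 0 to 4 counts.

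SS18 and the BCL7 proteins are small subunits at the catalytic end of the complex. Ss18, known from the fusion in synovial sarcoma, was at 75.6 and 78.1 CPM in WT vehicle and 81.9 and 83.1 in Arid1a KO vehicle and fell with JSH-23 (log2 fold change -0.32 in Arid1a KO and -0.13 in WT). Ss18l1 was at 17.1 and 18.0 CPM in WT vehicle, 20.8 and 20.5 in Arid1a KO vehicle, 25.6 and 23.7 in WT JSH-23 and 20.4 and 19.8 in Arid1a KO JSH-23. It rose with JSH-23 in WT by 0.49 (edgeR adjusted p = 2.71e-06), and in Arid1a KO the value was -0.04 (interaction -0.53, edgeR adjusted p = 0.000321). That interaction call was lost at an assumed coefficient of variation of 0.1 (edgeR adjusted p = 0.170).

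Bcl7a, the member of the BCL7 genes with the lowest level, had the largest log2 change of any tested member. It was at 8.91 and 10.2 CPM in WT vehicle, 13.4 and 15.2 in Arid1a KO vehicle, 7.59 and 9.91 in WT JSH-23 and 6.92 and 6.19 in Arid1a KO JSH-23. The Arid1a KO vehicle samples were the highest and the Arid1a KO JSH-23 samples the lowest, with the WT samples between. Its genotype difference was 0.58 ± 0.121 with vehicle (edgeR adjusted p = 4.05e-05) and -0.41 ± 0.141 with JSH-23 (edgeR adjusted p = 0.012), and JSH-23 lowered it 2.19-fold in Arid1a KO (log2 fold change -1.13 ± 0.126, edgeR adjusted p = 2.84e-12; interaction -0.99, edgeR adjusted p = 9.44e-06). The genotype difference with JSH-23 rested on single samples: it was -0.22 without WT JSH-23 replicate 2 (edgeR adjusted p = 0.339), -0.32 without Arid1a KO JSH-23 replicate 2 (edgeR adjusted p = 0.135) and -0.60 without WT JSH-23 replicate 1. Bcl7b stayed between 29.4 and 32.2 CPM in the 8 samples, with pairwise log2 fold changes from -0.03 to 0.01 and no edgeR call. Bcl7c was higher in Arid1a KO with JSH-23 (log2 fold change 0.24) and lower with JSH-23 in both genotypes (-0.15 in Arid1a KO, where the call was lost without Arid1a KO JSH-23 replicate 1, at -0.077, or Arid1a KO vehicle replicate 2, at -0.13, and -0.27 in WT). Bcl11a and Bcl11b, lineage factors that join BAF in neural and lymphoid cells, had 0 to 2 and 0 to 1 counts, and T cell markers summed to at most 0.336 CPM.

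**Figure D3:**
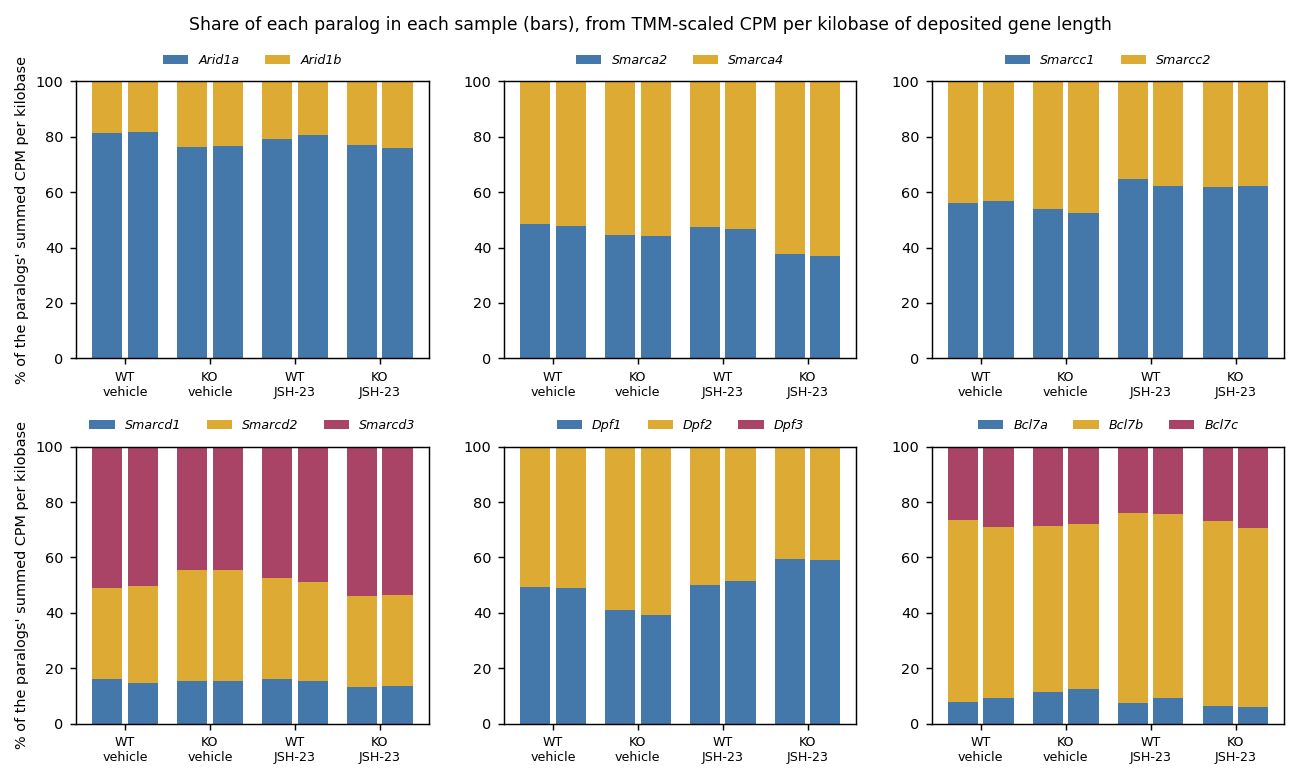
Share of each paralog (vertical axis, percent of the summed TMM-scaled CPM per kilobase of deposited length) in 6 paralog sets, 1 bar for each of the 8 samples. The Arid1b share is larger in the 4 Arid1a KO samples (22.98% to 24.1%) than in the 4 WT samples (18.1% to 20.9%), and Smarca4 and Dpf1 reach their largest shares in Arid1a KO JSH-23.

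With JSH-23, more subunit genes were called lower than higher in either genotype. In Arid1a KO, 5 of the 27 were higher (18.5%) and 16 lower (59.3%) with JSH-23 (all genes 33.4% and 34.4%), and 4 passed 1.5-fold: Smarcc2, Phf10 and Bcl7a fell and Dpf1 rose (all genes 26.0%). In WT, 3 were higher (11.1%) and 17 lower (63.0%; all genes 28.6% and 27.2%), and Smarcc2 passed 1.5-fold (all genes 15.8%). DESeq2 called 10 members lower in WT. The member medians were -0.14 in Arid1a KO and -0.12 in WT, against -0.02 and -0.01 over all genes. Lower in both genotypes were 13 genes (48.1%, against 19.6% of all genes), among them Arid1a, Arid2, Smarca2, Smarcb1, Smarcc1, Smarcc2, Pbrm1 and Phf10. Bicra was higher in both (3.70%, against 20.5%). Actb, Smarca4 and Smarcd3 were higher in Arid1a KO and lower in WT (11.1%, against 2.44%), though without TMM scaling the Arid1a KO value was -0.06 for Smarca4 and -0.00 for Smarcd3. With each sample left out in turn, 3 of the 5 higher and 11 of the 16 lower calls in Arid1a KO were kept, and 3 of 3 and 10 of 17 in WT. Arid1a, Arid1b, Arid2, Smarcb1, Bcl7c, Bicra and Smarca4 lost their call in Arid1a KO at least once, and Arid1a, Smarca4, Brd9, Smarcd1, Smarcd2, Smarce1 and Ss18 theirs in WT. At an assumed coefficient of variation of 0.1, 2 genes were higher (Actb and Dpf1) and 7 lower (Bcl7a, Dpf2, Phf10, Smarca2, Smarcc2, Smarcd1 and Smarcd2) in Arid1a KO. In WT that spread left 2 higher (Bicra and Ss18l1) and 2 lower (Phf10 and Smarcc2). These WT counts no longer showed an imbalance, though no share of all genes at that spread stands beside them. In Arid1a KO without TMM, the median was -0.25 over the members and -0.13 over all genes, so all genes were shifted. Without TMM the Arid1a KO split was 2 higher and 19 lower, and without WT JSH-23 replicate 1 or WT vehicle replicate 2 the WT count of lower genes was 10 or 11. Without WT JSH-23 replicate 1, no member passed 1.5-fold in WT. Leaving out Arid1a KO vehicle replicate 2 left 3 genes higher in Arid1a KO, and leaving out Arid1a KO JSH-23 replicate 2 gave 5 higher in WT.

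**Figure D4:**
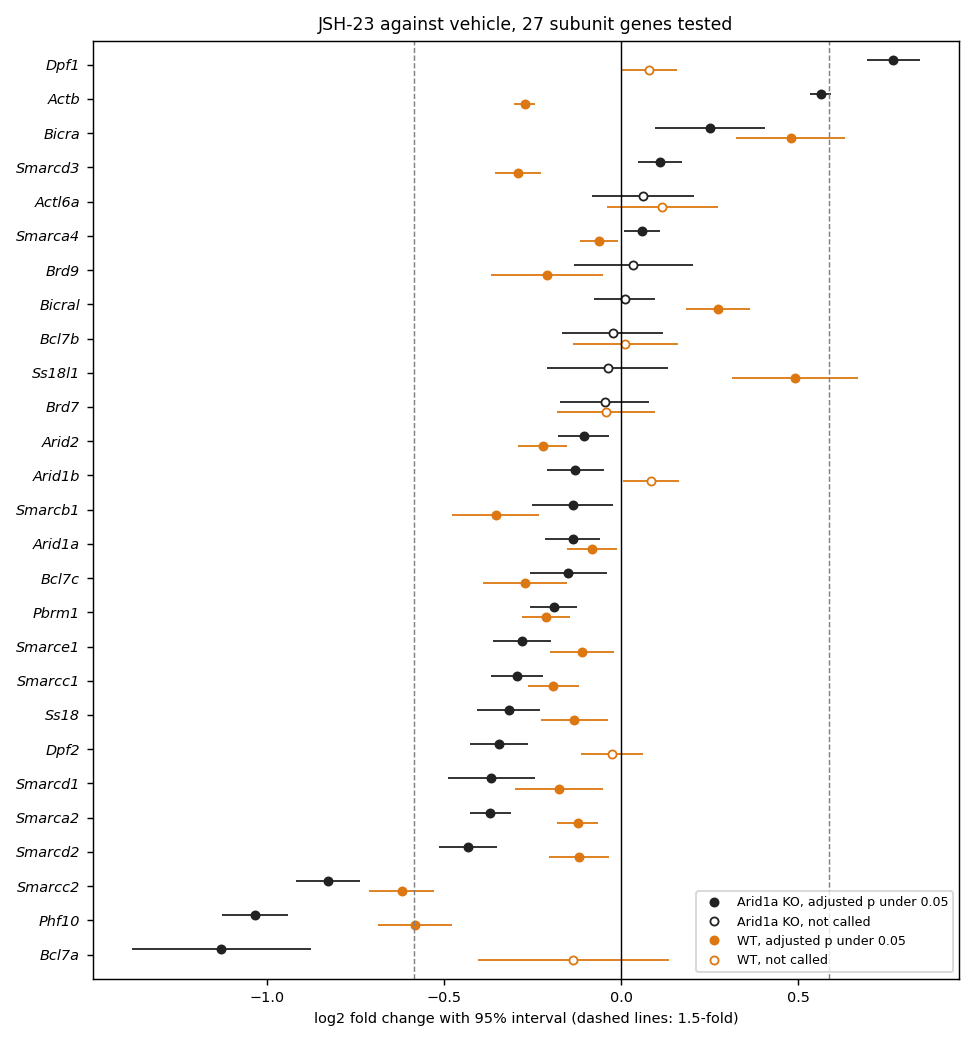
Log2 fold change of JSH-23 over vehicle (horizontal axis) with its 95% interval for the 27 subunit genes tested, in Arid1a KO (black) and in WT (orange) cells; filled points passed an adjusted p of 0.05 and dashed lines mark 1.5-fold. Bcl7a, Phf10 and Smarcc2 lie furthest to the left and Dpf1 furthest to the right in Arid1a KO, and most genes of both genotypes lie left of 0.

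The change with JSH-23 differed between genotypes for 16 members, more positive in Arid1a KO for 5 (18.5%, against 20.5% of all genes) and more negative for 11 (40.7%, against 17.9%). Actb, Dpf1, Smarcd3, Smarcb1 and Smarca4 made up the first set, of which Smarca4 turned to -0.08 on the TPM scale. Bcl7a, Ss18l1, Phf10, Dpf2, Smarcd2, Bicral, Smarca2, Arid1b, Smarcc2, Ss18 and Smarce1 made up the second, with interactions from -0.99 to -0.17. The TPM scale gave 3 more positive and 18 more negative. Its median interaction over all genes was -0.17 (log2(TPM + 1)), against -0.00 under TMM scaling. With all genes shifted, no conclusion about the members is drawn from these counts. Only Actb, Dpf1 and Bcl7a kept their call when a coefficient of variation of 0.1 was assumed, and DESeq2 gave 3 more positive. With each sample left out in turn, 4 of the 5 and 7 of the 11 calls were kept. Smarcb1, Arid1b (-0.14 without Arid1a KO JSH-23 replicate 1), Smarcc2, Ss18 and Smarce1 lost theirs at least once. For Arid1a itself the interaction was -0.05 (95% interval -0.16 to 0.05, edgeR adjusted p = 0.439).

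Levels between subunits can be compared only per length, and their order depends on the length taken. Leaving aside Actb, Smarcd3 had the highest level in each of the 4 groups with either length, on average 44.2 CPM per kilobase of deposited length and 101 with GENCODE lengths. Below it the order changed with the length taken (GENCODE lengths were chosen after seeing the data) and between groups: with deposited lengths, Dpf1 was above Smarcd2 in Arid1a KO JSH-23 (34.7 against 27.97 CPM per kilobase) and below it in Arid1a KO vehicle (20.4 against 37.7). Arid1b was below Arid1a and Arid2 in every group with both lengths, at 3.12 to 4.05 CPM per kilobase of deposited length against 10.1 to 16.9 for Arid1a and 12.1 to 18.0 for Arid2. With GENCODE lengths Arid1b was at 7.66 to 9.93, Arid1a at 11.6 to 19.4 and Arid2 at 12.8 to 19.1.

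Genes of neighboring pathways, from lists made by name, gave a frame for these sizes. Their counts are to be set against the shares of all genes called higher and lower, 25.0% and 25.5% by genotype with vehicle, 23.2% and 23.8% by genotype with JSH-23, 33.4% and 34.4% with JSH-23 in Arid1a KO and 28.6% and 27.2% with JSH-23 in WT. Of 18 other remodeler ATPases, 17 were tested, and in Arid1a KO with vehicle 4 were higher and 8 lower, among them Chd4 (log2 fold change -0.41) and Chd3 (-0.45), the ATPases of the NuRD complex, and Hells (0.50), a DNA methylation-linked helicase. With JSH-23, Chd4 differed between genotypes by -0.43 and Hells by 0.42, while the value of Chd3 was -0.04. Of 10 other ARID domain genes tested (11 listed), 1 was higher and 5 lower with vehicle, with Arid5b at -0.49, Arid4b at -0.28 and Kdm5b, a histone H3 lysine 4 demethylase, at -0.15. The higher one was Arid5a, an RNA-binding ARID protein and a paralog of Arid5b (named after its values were seen), at 0.66 with vehicle, -0.72 by genotype with JSH-23 and -1.43 for JSH-23 in Arid1a KO. These were the largest changes of that list in those 3 comparisons. Of 6 enhancer coactivators, 1 was higher and 3 lower: Kmt2d, an enhancer histone methyltransferase, at -0.26, its paralog Kmt2c at 0.21 and the acetyltransferase Ep300 at -0.11. With JSH-23 those 3 were all lower in Arid1a KO, at -0.61, -0.41 and -0.32. Of 9 genes tested of Polycomb repressive complex 2, which opposes SWI/SNF at many promoters, 3 were higher and 2 lower with vehicle, with Suz12, a core subunit, at 0.33, Aebp2 at -0.36 and Rbbp7 at -0.27. Among 5 genes of the IκB kinase and of the β-TrCP ubiquitin ligase, 2 were higher and 2 lower, with Chuk (IKKα) at 0.63, Ikbkg (NEMO) at -0.39 and Btrc, an F-box protein, at -0.22. Of the other actin genes, 2 of 5 were tested: Actg1 was lower (-0.33) and the value of Acta2, a smooth muscle actin, was -0.09. Tnfaip3 (A20), a brake on NF-κB signaling, differed by -0.03 with vehicle (edgeR adjusted p = 0.57) and by 0.25 with JSH-23 (edgeR adjusted p = 1.9e-09). With JSH-23 in Arid1a KO, 2 of the other remodeler ATPases were higher and 11 lower, 1 and 2 of the other ARID genes, 2 and 4 of the coactivators, 3 and 3 of the Polycomb genes, and 1 and 3 of the kinase and ligase genes. In WT the counts were 4 and 7, 1 and 3, 2 and 1, 1 and 4, and 2 and 2 in the same order of lists. Between genotypes with JSH-23 they were 1 and 9 for the ATPases, 1 and 6 for the ARID genes, 6 and 2 for the Polycomb genes and 1 and 3 for the kinase and ligase genes, and 4 of the 6 coactivators were lower.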

How the data were processed

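RNA from 8 samples of sorted cells, 2 per group, had been sequenced and counted. The authors deposited, per sample, read counts per gene, gene length and TPM (counts per length, scaled to 1 sum in every sample). Their methods name TopHat2, strand-specific HTSeq-count and mm10; the submitters' processing notes list HISAT2, HTSeq and DESeq2, so the aligner is uncertain. A combined TPM table was not used. Groups came from the deposited labels.

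Counts were tested with edgeR 4.0.16 (glmQLFit, glmQLFTest; R 4.3.3) in a fit of 4 group means over 8 samples, with TMM scaling and filterByExpr, which kept 13921 of 39089 genes. P-values were Benjamini-Hochberg adjusted over those genes. Called means an adjusted p under 0.05; the 1.5-fold size follows the study. The fit was tested on simulated data (13533 genes, WT and Arid1a KO with vehicle): 89.34% of 197 genes changed 2-fold were recovered, with 8 false calls. Every simulated gene was given the common spread of these samples, so that test cannot show how calls hold at a larger spread. The shares used TMM-scaled CPM per kilobase of deposited length. Members and lists were chosen with earlier results of these data known. Named in full were the ARID, ATPase and SMARCC1 genes and each member called past 1.5-fold in a pairwise comparison; other members are given by values or counts; of each other list, the genes with the smallest p. Alternatives were DESeq2 1.42.0, limma 3.58.1 on deposited log2(TPM + 1) or log2(TPM + 0.1) values, other filters and scaling, a replicate block, a coefficient of variation of 0.1 and leaving out each sample. Samples of a group differed beyond sampling noise (chi-square per degree of freedom 1.461 to 1.569) and were kept separate. Libraries held 16401581 to 21972231 counts.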

Additional observations from a re-analysis of the deposited data

Results flagged for a closer look

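The response to JSH-23 was unequal in the 2 genotypes, by edgeR's interaction term (adjusted p under 0.05, n = 2 per group), for 16 subunit genes and 13 genes named from the other lists. Of the subunit calls, only those of Actb, Dpf1 and Bcl7a were kept when a coefficient of variation of 0.1 was assumed. Values are log2 interactions, positive where JSH-23 moved the gene up more, or down less, in Arid1a KO. Among subunits they were positive for Actb (0.84), Dpf1 (0.69), Smarcd3 (0.40), Smarcb1 (0.22) and Smarca4 (0.12, which turned negative on the TPM scale). Negative values were found for Bcl7a (-0.99), Ss18l1 (-0.53), Phf10 (-0.45), Dpf2 (-0.32), Smarcd2 (-0.31), Bicral (-0.26), Smarca2 (-0.25), Arid1b (-0.21), Smarcc2 (-0.21), Ss18 (-0.19) and Smarce1 (-0.17).

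Of the other genes, Rbbp7 (0.78), Actg1 (0.60), Chd3 (0.41), Aebp2 (0.28), Tnfaip3 (0.28), Arid5b (0.25) and Ikbkg (0.25) were positive, and Arid5a (-1.38), Kmt2c (-0.63), Chuk (-0.62), Kmt2d (-0.35), Ep300 (-0.22) and Suz12 (-0.11) negative. Over all genes tested, 20.5% had a positive and 17.9% a negative called interaction. The genes of the other lists had been named for the smallest p by genotype with vehicle, and Arid5a after its values were seen. That vehicle difference is part of the interaction, so these genes are not to be set against the shares of all genes. Krt8 and Pdgfra, of the epithelial and fibroblast lists, had interactions of 0.59 and -0.58, and their part in these values was not tested. The 3 epithelial genes tested ran from 0.35 to 1.79. Of the 3 fibroblast genes tested, Pdgfra alone was called and the median was 0.02, so it does not stand for that list. With 2 samples in a group, no sample could be tested as an outlier.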

How the results depend on the processing

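Of the summary results, 266 values under alternatives kept their direction and size or side of the threshold, 46 counts or shares moved and 4 lost a call; of single genes, 1324 kept their call, 210 lost it and 14 reversed. Assuming a coefficient of variation of 0.1 left, higher and lower, 2 and 4 members (Arid1a KO against WT, vehicle), 1 and 2 (JSH-23), 2 and 7 (JSH-23 in Arid1a KO), 2 and 2 (JSH-23 in WT) and 2 and 1 (interaction: Actb and Dpf1, and Bcl7a), and ended both Arid1b calls (-0.16, adjusted p = 0.504; -0.37, adjusted p = 0.0716). DESeq2 gave 6 higher with vehicle, 10 lower with JSH-23 in WT and 3 positive interactions. On the TPM scale the median of all genes (JSH-23 in Arid1a KO) moved by -0.18 with a pseudocount of 1 and by -0.23 with 0.1, and there 2 members were higher in Arid1a KO with JSH-23, 2 rose and 23 fell with JSH-23 in Arid1a KO, and 3 and 18 interactions were positive and negative, under either pseudocount; Arid1b with vehicle was -0.14 or -0.15 (adjusted p = 0.134 or 0.144). Without TMM the median of all genes was -0.13 (JSH-23 in Arid1a KO), with 2 rising there and 3 positive interactions. Past 1.5-fold, 2 members (Arid1a and Bcl7a) stood with vehicle under a minimum of 10 counts and 0 under log2(TPM + 1), where Arid1a was -0.58; with JSH-23, 2 or 3 on the TPM scale; and for JSH-23 in WT, 2 with no TMM, no filter, a minimum of 10 counts, either TPM scale or only the 2 groups compared. GENCODE lengths, chosen after seeing the data, made the Arid1b share difference 5.84 points. These causes were not tested beyond the settings named. Shares of all genes called are not given under these alternatives, so the counts of members there have no such frame.

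Reversed by TPM (pseudocount 1, then 0.1): Smarca4, -0.046 and -0.047 by genotype with JSH-23, -0.18 and -0.18 for JSH-23 in Arid1a KO, -0.077 and -0.078 for the interaction; Smarcd3, -0.0089 and -0.0090 by genotype with JSH-23, -0.13 and -0.13 for JSH-23 in Arid1a KO; Brd7, -0.0062 and -0.0065 by genotype with JSH-23. Without TMM, JSH-23 in Arid1a KO gave -0.055 for Smarca4 and -0.0047 for Smarcd3; the cause was not tested.

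Leaving out 1 sample each, members called higher and lower ranged 6 to 9 and 9 to 9 (vehicle), 6 to 7 and 9 to 13 (JSH-23), 3 to 6 and 11 to 16 (JSH-23 in Arid1a KO), 3 to 5 and 10 to 17 (JSH-23 in WT), 4 to 6 and 8 to 11 (interaction). Members past 1.5-fold ranged 1 to 1, 1 to 2, 4 to 5 and 0 to 2 in the 4 pairwise comparisons in that order. The lone sample left in a group was assumed to vary like the others.

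Samples with the same number did not deviate together (correlations -0.0964 to 0.0401), so they share only a number. With a replicate block, 9 members were higher with vehicle in place of 10, and the Arid1a difference was -0.60; no other summary result moved past its threshold.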
